A study of Mus musculus with 2 samples.

Results

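The 36 cell cycle genes described here were a list of named genes that drive or mark cell division. No contact value entered the rule, but the genes were named with earlier results of these lists known. They were 18 G1 regulators, 7 replication genes and 11 mitosis genes, of 21887 protein-coding genes placed on the chromosomes of GRCm38. Each gene was searched in 2 lists of enriched Hi-C pixels. A pixel is a pair of 5 kb bins of a chromosome with more contacts than its surroundings, and it was assigned to a gene where an anchor bin lay within 10 kb of either annotated gene end. Of the 36 genes 17 had at least 1 such pixel, 11 of them in both lists, and the other 19 had none in either list.

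The hair matrix is the dividing epithelium at the base of the follicle, whose daughter cells move up and form the hair shaft and inner root sheath. In dividing cells D-type cyclins with CDK4 or CDK6 phosphorylate the retinoblastoma protein and release E2F factors, which raise transcription of replication and mitosis genes. The CDK inhibitors of the Cip/Kip and INK4 families oppose this step. The MCM helicase and PCNA then act at the replication fork while the DNA is copied. The B-type cyclins with CDK1, the Aurora kinases, PLK1 and NEK2 carry the cell through mitosis.

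Hi-C joins DNA fragments that neighbour each other in the crosslinked nucleus and reads the joined pairs. The study made 1 library from wild-type (WT) mice and 1 from Tet2/Tet3 DKO, Krt14-Cre mice (DKO), both from sorted keratinocytes of the hair matrix on postnatal day 4.5. Tet2 and Tet3 encode dioxygenases that oxidise 5-methylcytosine, and the Krt14 promoter drives Cre in basal keratinocytes of the epidermis and follicle, so the deletion is not limited to the matrix. The sources used here do not say whether the WT mice carried Cre or how many animals were pooled. The contact lists hold no transcript levels, so the cell type could not be checked against marker genes. With 1 library per genotype there is no replicate error and no test, and a difference between the lists cannot be assigned to genotype. A gene without a pixel has no entry, which does not show that contacts are absent. The WT list held 5811 pixels and the DKO list 4872, with a median of 18 observed contacts per pixel in each, and the donut expected counts at the 1940 pixels listed in both had a median DKO/WT ratio of 0.973.

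Of the 36 genes 13 had a pixel in WT and 15 in DKO. Over all protein-coding genes the shares with a pixel were 21.2% in WT and 20.1% in DKO. The 17 genes with a pixel in either list made up 47.2% of the 36 (exact 95% interval 30.4 to 64.5), against 28.3% of all protein-coding genes. The 11 genes with pixels in both lists made up 30.6% (16.3 to 48.1), against 12.9% of all. A pixel in WT alone was found at 2 genes (Cdkn1a and Ccnb1), where the genome-wide share was 8.24%, and in DKO alone at 4 genes (Cdkn1b, Mcm6, Ccna2 and Aurka), where it was 7.14%. The genes were named with earlier results of these lists known, so these shares are a description. Intervals cover counting error only. They also treat genes as independent.

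**Figure D1:**
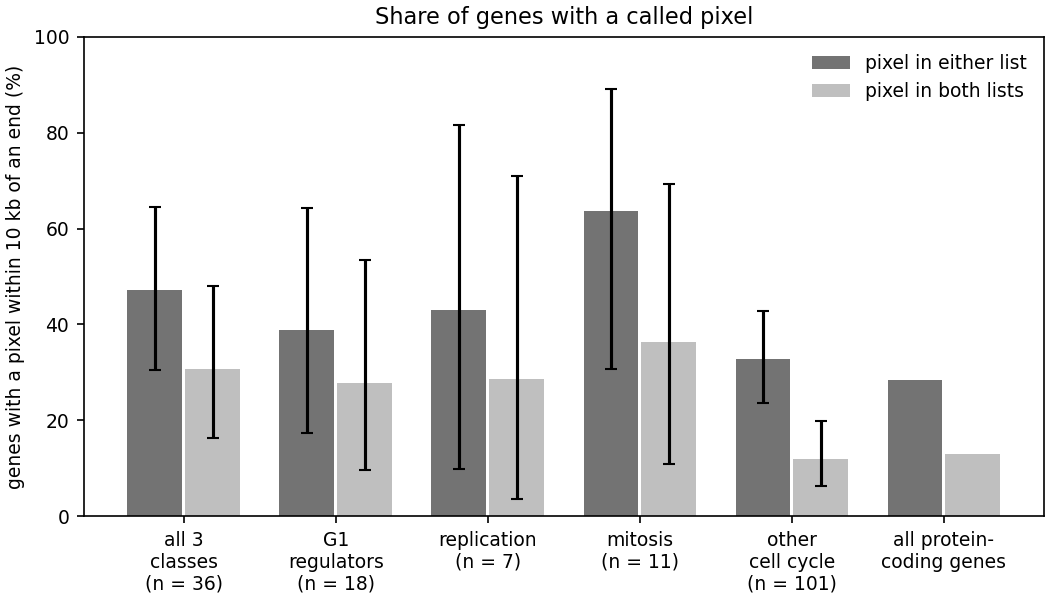
Percent of genes with a pixel in either list (dark) or in both lists (light) for the 36 cell cycle genes, their 3 classes, the other cell cycle genes and all 21887 protein-coding genes. Error bars are exact 95% binomial intervals. The 36 genes stood at 47.2% and 30.6%, all genes at 28.3% and 12.9%, and the intervals of the single classes were wide.

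By class, 7 of 18 G1 regulators (38.9%, 17.3 to 64.3), 3 of 7 replication genes (42.9%, 9.90 to 81.6) and 7 of 11 mitosis genes (63.6%, 30.8 to 89.1) had a pixel in either list. The intervals of the classes overlapped. The members had 41 pixels in WT, which joined into 20 loops, and 39 pixels in DKO, in 22 loops, a loop being a group of pixels linked within 20 kb at both anchors. Within the 10 kb limit no pixel was shared between 2 of the 36 genes. At the exact bins 15 pixels were in both lists. They were 36.6% of the WT and 38.5% of the DKO pixels of the members, near the 33.4% and 39.8% of the whole lists. Nek2 alone gave 13 of the WT pixels, and without it the WT list had 28 and the DKO list 34.

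**Figure D2:**
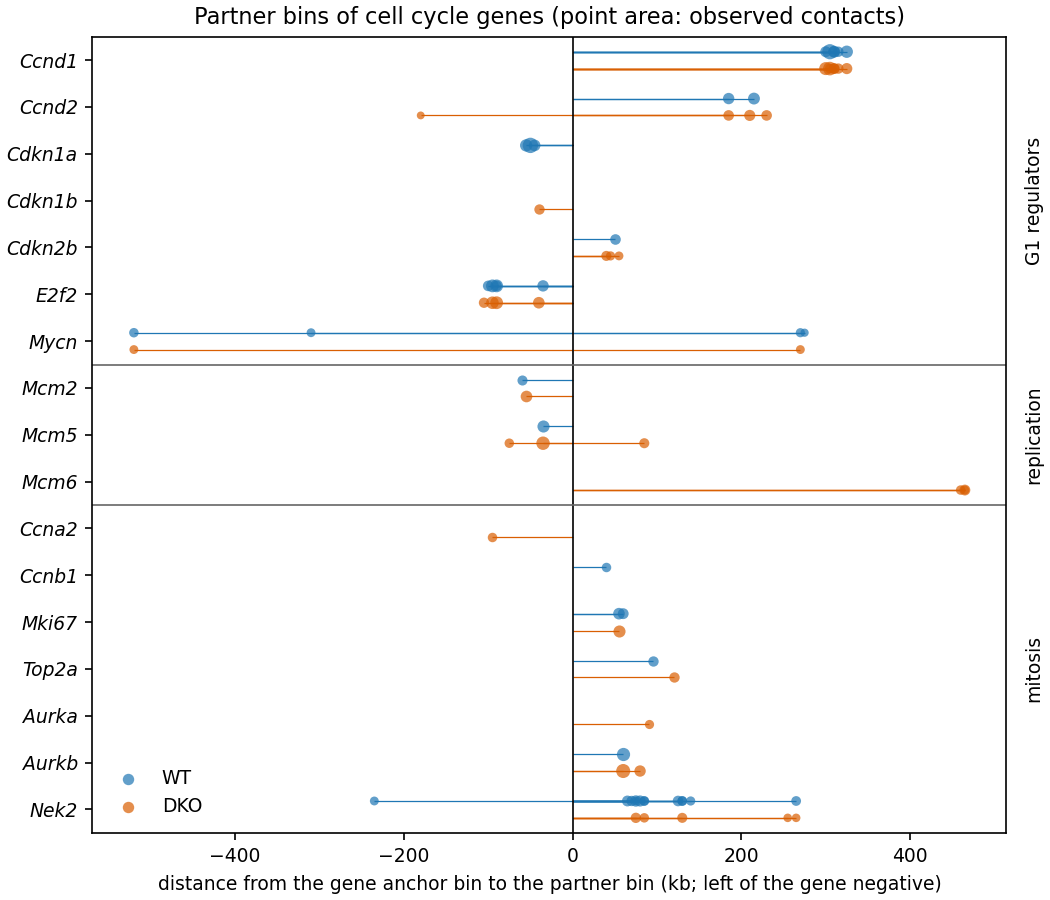
Distance in kb from the anchor bin at each gene to the partner bin, with partners at lower coordinates drawn as negative, for every pixel of the 17 genes in WT (blue) and DKO (orange). Point area is the observed contact count. Ccnd1 and Mycn reached 300 kb or more in both lists, while the pixels of Cdkn2b, Mcm2, Mki67 and Aurkb stayed within 80 kb.

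Among the G1 regulators the D-type cyclins were checked first. Ccnd1, cyclin D1, lies on chromosome 7 (144929931 to 144939831). It had 6 pixels in WT and 7 in DKO, which formed a single loop in each list, and 5 pixels were identical. The highest joined the bin 144935001 to 144940000, which holds a gene end, to 145240001 to 145245000 over 305 kb. It had 41 contacts in WT, 6.56 times the donut expected count (4.71 to 8.90), and 33 in DKO, 6.0 times (4.13 to 8.42). The intervals of the 2 libraries overlapped over most of their range. The partner bins, from 145235001 to 145255000, overlapped Tpcn2, an endolysosomal channel gene, and no annotated end of a protein-coding gene was within 10 kb of them. The anchor was shared with LTO1, the neighbouring gene, which has an end within 10 kb of every Ccnd1 anchor bin.

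Ccnd2, cyclin D2 (chromosome 6, 127125162 to 127152188), contacted bins that hold no annotated gene on its right side in both lists. In WT 2 pixels started at 127145001, with 23 contacts over 185 kb (4.19 times expected, 2.66 to 6.29) and 25 over 215 kb (4.57, 2.96 to 6.74). In DKO 3 pixels of a single loop reached over 185, 210 and 230 kb with 20, 22 and 20 contacts, at 4.08 to 5.30 times expected. No bin pair was identical, but the contacts over 185 kb, and those over 210 and 215 kb, lay within 1 bin of each other. The nearest protein-coding gene end, that of Parp11, was 66.8 to 112 kb from the partner bins. DKO also listed a pixel of 11 contacts on the left, over 180 kb to Rad51ap1 and D6Wsu163e (6.51, 3.25 to 11.7), which had no WT pixel within 2 bins and a highest false discovery rate (FDR) of 0.089. Ccnd3 had no pixel in either list.

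Mycn, a MYC family transcription factor that promotes proliferation, had the widest contacts of the 17 genes. It lies on chromosome 12 (12936093 to 12941836), with its start inside the anchor bin 12940001 to 12945000. That bin contacted 12420001 to 12425000 over 520 kb, with 16 contacts in WT (6.35 times expected, 3.63 to 10.3) and 14 in DKO (5.74, 3.14 to 9.63). On its other side it contacted 13210001 to 13215000 over 270 kb, near an end of Ddx1, an RNA helicase gene, with 15 contacts in WT (6.47, 3.62 to 10.7) and 14 in DKO (5.58, 3.05 to 9.36). Both partners were thus listed in both libraries, with counts within 2 contacts of each other. The highest FDR of the left and right pixel was 0.0012 and 0.019 in WT, and 0.052 and 0.053 in DKO. At an FDR under 0.01 Mycn stayed in the WT list alone. The left partner bin lay in the long non-coding RNA gene Gm34489 and had no protein-coding gene end within 10 kb. WT alone listed a contact of 14 over 310 kb (5.15, 2.82 to 8.64), and a neighbour of the Ddx1 pixel with 12. Myc had no pixel in either list, and the nearest anchor bin was 2180 kb away in WT and 2670 kb in DKO.

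The promoters of Mycn, Cdkn2b and Mcm5 lay whole inside an anchor bin in both lists, and those of Nek2 in WT alone and Mcm2 in DKO alone, of the 28 members with a promoter entry in the RefSeq table (GRCm38.p6). The first 3 are printed because the listed bins contain them. Each runs 5′ to 3′ on the strand of the gene, from 250 bases before the start to 50 from it. Capitals mark matches on either strand to the E2F motif TTTNNCGC, the cell cycle homology region TTTGAA, the CCAAT box and the GC box GGGCGG, and matches may overlap. The Mycn promoter (chr12:12941787-12942086, minus strand) holds 3 E2F matches, which are overlapping or close together, 1 TTTGAA and 2 GC boxes.
Mycn: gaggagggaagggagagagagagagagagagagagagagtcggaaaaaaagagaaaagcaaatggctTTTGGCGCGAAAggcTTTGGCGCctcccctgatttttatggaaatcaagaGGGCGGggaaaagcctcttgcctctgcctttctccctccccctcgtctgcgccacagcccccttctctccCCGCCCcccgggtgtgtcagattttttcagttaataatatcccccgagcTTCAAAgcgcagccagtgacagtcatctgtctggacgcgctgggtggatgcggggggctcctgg
The Cdkn2b promoter (chr4:89310983-89311282, minus strand) holds 1 TTTGAA and 1 GC box and no E2F or CCAAT match.
Cdkn2b: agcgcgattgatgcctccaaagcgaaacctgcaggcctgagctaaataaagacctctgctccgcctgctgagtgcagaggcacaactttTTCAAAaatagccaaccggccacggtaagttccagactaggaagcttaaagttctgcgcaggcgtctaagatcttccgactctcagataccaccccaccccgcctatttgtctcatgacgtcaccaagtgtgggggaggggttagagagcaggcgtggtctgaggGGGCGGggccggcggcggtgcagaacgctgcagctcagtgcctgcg
The Mcm5 promoter (chr8:75109259-75109558, plus strand) holds 2 overlapping E2F matches and 3 CCAAT boxes.
Mcm5: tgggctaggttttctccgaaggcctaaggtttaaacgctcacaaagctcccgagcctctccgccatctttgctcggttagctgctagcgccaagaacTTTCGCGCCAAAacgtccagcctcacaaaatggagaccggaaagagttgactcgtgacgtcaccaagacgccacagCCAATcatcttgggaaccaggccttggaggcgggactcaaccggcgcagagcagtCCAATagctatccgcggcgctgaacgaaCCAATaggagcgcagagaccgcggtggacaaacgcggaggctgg
Of all 32851 promoter windows of this length, 5.17% hold the E2F motif, 17.9% TTTGAA, 37.4% CCAAT and 35.7% the GC box. Of the 28 members with an entry, 11 hold the E2F motif in a window, and of all 27025 genes with an entry 5.93% do. Of these 11 members 4 had a pixel (E2f2, Mcm5, Mcm6 and Mycn), and of the 28 with an entry 13 had a pixel. A match describes letters and not a bound site. A resolution of 5 kb does not place a contact at the promoter itself.

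E2f2, an activating E2F factor (chromosome 4, 136172274 to 136196057), had 5 pixels in WT and 4 in DKO, in 2 loops each. The first joined bins left of its start to a region near Rpl11. Its 2 identical pixels spanned 95 kb, with 29 contacts in WT (6.31, 4.23 to 9.06) and 28 in DKO (5.70, 3.79 to 8.24), and 90 kb, with 29 contacts in each library (4.47, 2.99 to 6.42 and 4.31, 2.88 to 6.19). The anchor bin 136160001 to 136165000 was 7.27 kb from the gene, and neighbouring pixels of both lists, with 20 to 26 contacts, continued beyond the 10 kb limit. The second loop joined the bin before the start of E2f2 to its far end, shared with Asap3, over 35 kb in WT with 23 contacts (3.48, 2.21 to 5.23) and over 40 kb in DKO with 24 (2.96, 1.89 to 4.40). These were the only pixels with both anchors within 10 kb of the same member. E2f1 and E2f3 had no pixel.

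The CDK inhibitors differed from one another. Cdkn2b, which encodes the INK4 inhibitor p15 of CDK4 and CDK6, stood at the highest ratios of the 17 genes. The bin 89310001 to 89315000 of chromosome 4, which holds its start, contacted 89360001 to 89365000 in WT with 20 contacts, 36.2 times the donut expected count (22.1 to 55.9). In DKO 3 pixels of 18, 15 and 14 contacts over 40, 45 and 55 kb stood at 24.8 (14.7 to 39.1), 21.5 (12.1 to 35.5) and 24.5 (13.4 to 41.1) times. The observed counts were at or near the median of the lists, and the expected ones were small, 0.553 in WT and 0.572 to 0.727 in DKO. Among all pixels spanning 40 to 55 kb the median donut expected count was 5.73 in WT (779 pixels) and 5.65 in DKO (812), and 28 and 34 of them were under 1. The bottom-left neighbourhood had an expected count of 0 at all 4 pixels, and with the vertical neighbourhood the WT ratio was 11.9. The high ratios of Cdkn2b thus stood beside nearly empty surroundings, in both libraries. No bin pair was in both lists, but each DKO pixel lay within 2 bins of the WT one. The partner bins lay in Gm12610, a long non-coding RNA gene that also overlaps Cdkn2b. The neighbouring Cdkn2a, which encodes p16 and ARF, had its nearest anchor bin at 15.4 kb in both lists, outside the limit.

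Cdkn1a, which encodes the p53-induced inhibitor p21 (chromosome 17, 29090979 to 29100722), had pixels in WT alone. The 3 pixels joined the bin 29095001 to 29100000, 0.722 kb from its 3′ end, to bins at Srsf3, a splicing factor gene, over 55, 50 and 45 kb. They had 27, 42 and 24 contacts at 4.10 (2.70 to 5.97), 5.02 (3.62 to 6.79) and 3.36 (2.15 to 5.00) times expected. The count of 42 was the highest at any of the 36 genes, and 2 of the 3 pixels had every FDR under 0.01. No DKO pixel lay within 2 bins of them, and the nearest DKO anchor bin was 41.0 kb from Cdkn1a. What the DKO library counted there is not recorded in the list. Cdkn1b, which encodes p27, had the opposite listing, a single DKO pixel of 19 contacts over 40 kb to Crebl2 and Gpr19 (2.90, 1.75 to 4.53), with the lowest ratio of all pixels at the 36 genes and a highest FDR of 0.092. The remaining G1 regulators without a pixel were Ccne1 and Ccne2, the cyclins of S phase entry, their partner Cdk2, the cyclin D kinases Cdk4 and Cdk6, and Rb1.

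Of the replication genes, 3 of the 6 helicase subunits had pixels. Mcm5 (chromosome 8, 75109468 to 75128439) had the same pixel in both lists, from the bin 75105001 to 75110000 that holds its start to 75070001 to 75075000 in Tom1, an endosomal sorting gene. Over 35 kb it had 26 contacts in WT (3.96, 2.59 to 5.80) and 32 in DKO (4.62, 3.16 to 6.52), so the intervals overlapped. DKO alone listed 16 contacts over 75 kb to Hmgxb4 and Tom1 (4.24, 2.42 to 6.88) and 18 over 85 kb from the 3′ side to Rasd2 (4.56, 2.70 to 7.20). The start of Mcm5 shares its anchor with Hmox1, heme oxygenase.

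Mcm2 (chromosome 6, 88883474 to 88898780) contacted the bin 88840001 to 88845000, at Abtb1 and Podxl2, in both lists from neighbouring bins. WT had 18 contacts over 60 kb (3.38, 2.00 to 5.34) and DKO 24 over 55 kb (3.81, 2.44 to 5.66), and Tpra1 has an end at the same anchor. Mcm6 (chromosome 1, 128331575 to 128359705) had pixels in DKO alone by the 10 kb rule. The 3 pixels spanned 460 to 465 kb to a region 233 kb or more from any protein-coding gene end, with 14, 16 and 21 contacts, the last at 10.8 times expected (6.71 to 16.6). WT listed a neighbouring pixel over 460 kb with 19 contacts, at 8.96 times (5.40 to 14.0), whose anchor bin was 10.3 kb from Mcm6. DKO listed that same bin pair with 12 contacts (7.09, 3.66 to 12.4). The loop was thus in both lists, and the 10 kb limit put Mcm6 in DKO alone. Dars, an aspartyl-tRNA synthetase gene, also has an end at this anchor. Mcm3, Mcm4, Mcm7 and Pcna, the sliding clamp of the replication fork, had no pixel.

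Among the mitosis genes Nek2, a centrosomal kinase on chromosome 1 (191821449 to 191833049), had 13 pixels in WT, the most of the 36 in that list, and 5 in DKO, where Ccnd1 had 7. Of all protein-coding genes 4, Nek2 included, had at least 13 pixels in WT (0.0183%), and 348 (1.59%) had at least 5 in DKO. No other protein-coding gene end lay within 10 kb of its anchors. The DKO pixels had 13 to 19 contacts and a highest FDR of 0.017 to 0.098, and those of WT ranged from 8.4e-06 to 0.084. At an FDR under 0.01, or with at least 20 contacts, Nek2 stayed in the WT list alone. The pixels formed 4 WT loops and 3 DKO loops, with 3 partners in common. The first was Slc30a1, a zinc transporter gene, whose highest pixel over 75 kb had 23 contacts in WT (5.96, 3.78 to 8.94) and 19 in DKO (4.54, 2.73 to 7.09). The next was Rd3, with 20 contacts in WT over 125 kb (5.95, 3.64 to 9.20) and 18 in DKO over 130 kb (5.80, 3.44 to 9.16). The longest reached Traf5 and Rcor3 over 265 kb, with 17 contacts in WT (9.0, 5.24 to 14.4) and 13 in DKO (6.49, 3.46 to 11.1). In WT alone Nek2 also contacted Ints7 and Dtl, the latter a subunit of the ubiquitin ligase that degrades the licensing factor CDT1. That pixel spanned 235 kb with 14 contacts (7.45, 4.07 to 12.5) and had a highest FDR of 0.049. The interval of each common partner overlapped between the libraries, and the larger number in WT lay in the loops to Slc30a1 (7 pixels against 2) and Rd3 (4 against 1). By the nearer gene end all 5 DKO pixels lay at the 3′ side of Nek2, and 2 of the 13 WT pixels, those to Dtl and 1 to Rd3, at its start. Some pixels of both lists were anchored in the bin 191825001 to 191830000, inside the gene and 3049 bases from its 3′ end. That bin is nearly as close to the start, so 5 kb bins do not settle the side there.

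Aurkb, the kinase of the chromosomal passenger complex (chromosome 11, 69045624 to 69051664), shared a pixel between the lists, over 60 kb to Hes7 and Aloxe3, with 31 contacts in WT (4.18, 2.84 to 5.94) and 35 in DKO (4.83, 3.36 to 6.71). Its anchor bin was 8.34 kb from Aurkb and near ends of Borcs6 and Tmem107. DKO listed a further pixel at 0.624 kb from Aurkb, in a bin also near Ctc1, over 80 kb to the same partner, with 23 contacts (4.48, 2.84 to 6.72). Mki67, which encodes the proliferation marker Ki-67 (chromosome 7, 135689784 to 135716450), had an identical pixel in both lists that spanned 55 kb across the gene. It had 24 contacts in WT (3.49, 2.24 to 5.19) and 26 in DKO (3.44, 2.25 to 5.04), nearly the same ratio, and its anchor beyond the 3′ end is shared with Ptpre. Top2a, DNA topoisomerase II alpha (chromosome 11, 98992947 to 99024199), had 19 contacts in each list but to different partners, over 95 kb in WT (3.03, 1.83 to 4.74) and over 120 kb to Ccr7 in DKO (3.51, 2.11 to 5.47). Both pixels had a highest FDR near the limit of 0.1 of the lists, 0.082 in WT and 0.092 in DKO. A WT pixel of 22 contacts near the DKO one, with a highest FDR of 0.074, lay 10.8 kb from Top2a. The DKO anchor is also near an end of Igfbp4.

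The cyclins of mitosis had 1 pixel each or none. Ccnb1, cyclin B1, had a WT pixel of 16 contacts over 40 kb (3.98, 2.28 to 6.47) whose bins both lie near ends of Slc30a5. Ccna2, cyclin A2, had a DKO pixel of 16 contacts over 95 kb to Anxa5 and 1810062G17Rik (5.78, 3.30 to 9.39), from a bin that is also near Exosc9 and Bbs7, with every FDR under 0.01. Aurka, the kinase of the spindle poles, had a DKO pixel of 15 contacts over 90 kb to Cass4 and Rtf2 (4.68, 2.62 to 7.72), with a highest FDR of 0.087, and its anchor is shared with Fam210b. None of these 3 had a pixel of the other list within 2 bins. Ccnb2, Cdk1, Plk1 and Bub1, which act at mitotic entry and the spindle checkpoint, had no pixel.

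**Figure D3:**
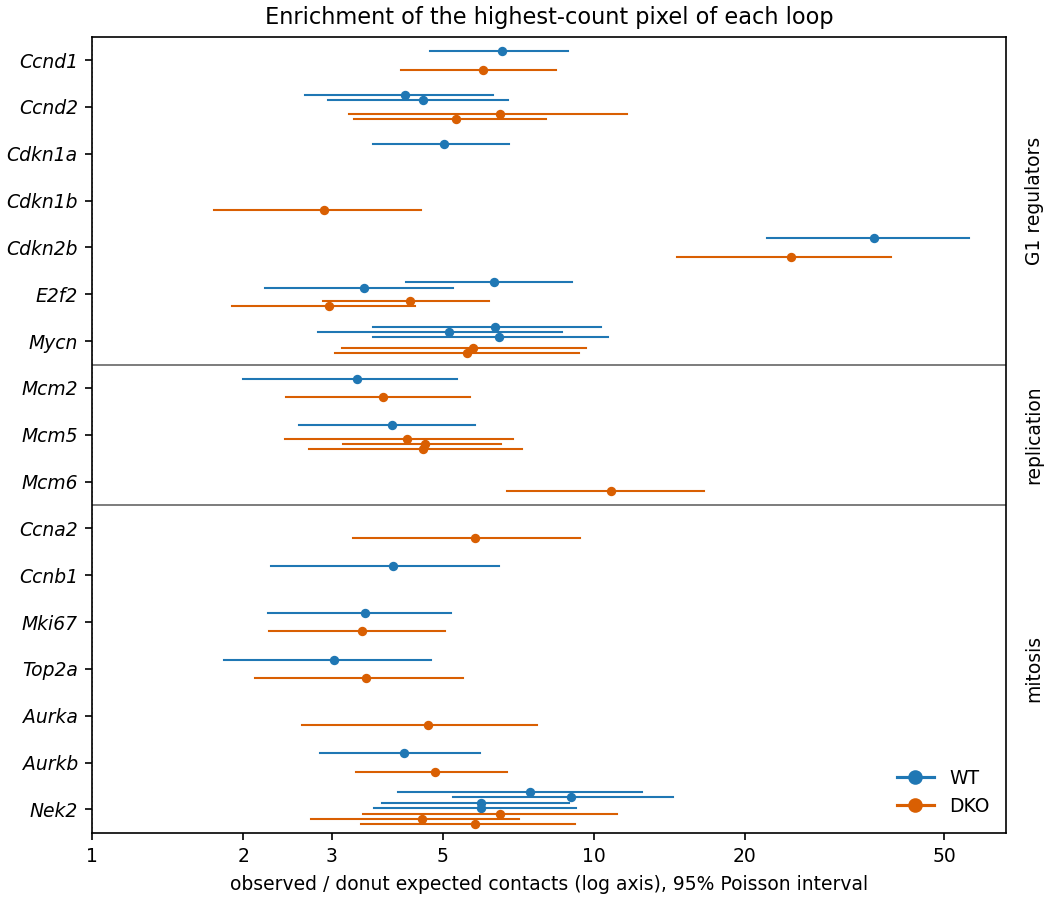
Observed over donut expected contacts (log axis) for the highest-count pixel of each loop at the 17 genes in WT (blue) and DKO (orange), with exact 95% Poisson intervals. Cdkn2b stood at 36.2 in WT and 24.8 in DKO, Mcm6 at 10.8 in DKO, and every other point at 9.0 or less.

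Reach and partners are described by class over few genes. G1 regulators had a median pixel span of 215 kb in WT and 210.0 kb in DKO, and 11 of 21 pixels in each list spanned 200 kb or more (52.4%), against 24.9% of the whole WT list and 20.6% of the DKO list. These 11 came from Ccnd1, Ccnd2 and Mycn. Mitosis genes had medians of 82.5 and 90 kb, with 2 of 18 and 2 of 11 pixels of 200 kb or more, all at Nek2. Replication genes had a median of 47.5 kb in WT, with 0 of 2 pixels of 200 kb or more, and of 85.0 kb in DKO, with 3 of 7, all at Mcm6. Counted by loops, so that Ccnd1 counts once, the G1 medians were 200 kb in WT (10 loops) and 180.0 kb in DKO (9 loops), and the mitosis medians 85.0 and 92.5 kb (8 loops each). Whole-list medians by loop were 115 kb in WT and 100 kb in DKO.

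A protein-coding gene end lay within 10 kb of the partner bin at 6 of 21 G1 pixels in WT (28.6%, interval 11.3 to 52.2) and at 5 of 21 in DKO (23.8%, interval 8.22 to 47.2), 1 of them in each list the other end of E2f2 itself. Mitosis genes had such a partner at 15 of their 18 pixels in WT (83.3%, interval 58.6 to 96.4) and at 10 of their 11 in DKO (90.9%, interval 58.7 to 99.8). Replication genes had one at 2 of 2 pixels in WT and 4 of 7 in DKO. Of all pixels with a protein-coding gene end at either anchor, 45.7% in WT and 47.5% in DKO had one at both. That share counts each pixel once, whereas the member shares start from the anchor of the gene. Counted from every gene-end anchor, pixels with ends at both would enter from either side, and the share would be higher. It was not computed, so the member shares cannot be set directly against 45.7% and 47.5%. Pixels of a gene share their anchor, so the intervals of the member shares are too narrow. Without Nek2 the mitosis counts were 2 of 5 in WT and 5 of 6 in DKO, so the WT value rests on that gene. By loops 3 of 10 G1 loops in WT and 5 of 9 in DKO had such a partner, against 6 of 8 and 7 of 8 mitosis loops.

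At the 15 pixels in both lists, which belong to 7 genes, the DKO/WT ratio of enrichment ranged from 0.762 at Nek2 (0.393 to 1.46) to 1.61 at Ccnd1 (0.894 to 2.97). The median was 0.963, against 0.983 over the 1940 pixels in both lists. Ratios were under 1 at 12 pixels and over 1 at 3, while over all pixels in both lists 47.2% were over 1. Pixels of the same gene are not independent, and Ccnd1 gave 5 of the 15 and Nek2 3. Every interval of the 15 included 1. Only pixels called in both lists have a ratio, so a contact lost or much weaker in 1 library could not enter. The ratios thus do not show whether contacts were lost in either library. Over all pixels in both lists 1.6% had an interval that left out 1. The highest ratio stood next to 4 other Ccnd1 pixels of the same loop with ratios of 0.844 to 0.983, so it was not shared by its neighbours. With 14 to 41 contacts per pixel, differences inside these intervals were not detectable at this depth.

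**Figure D4:**
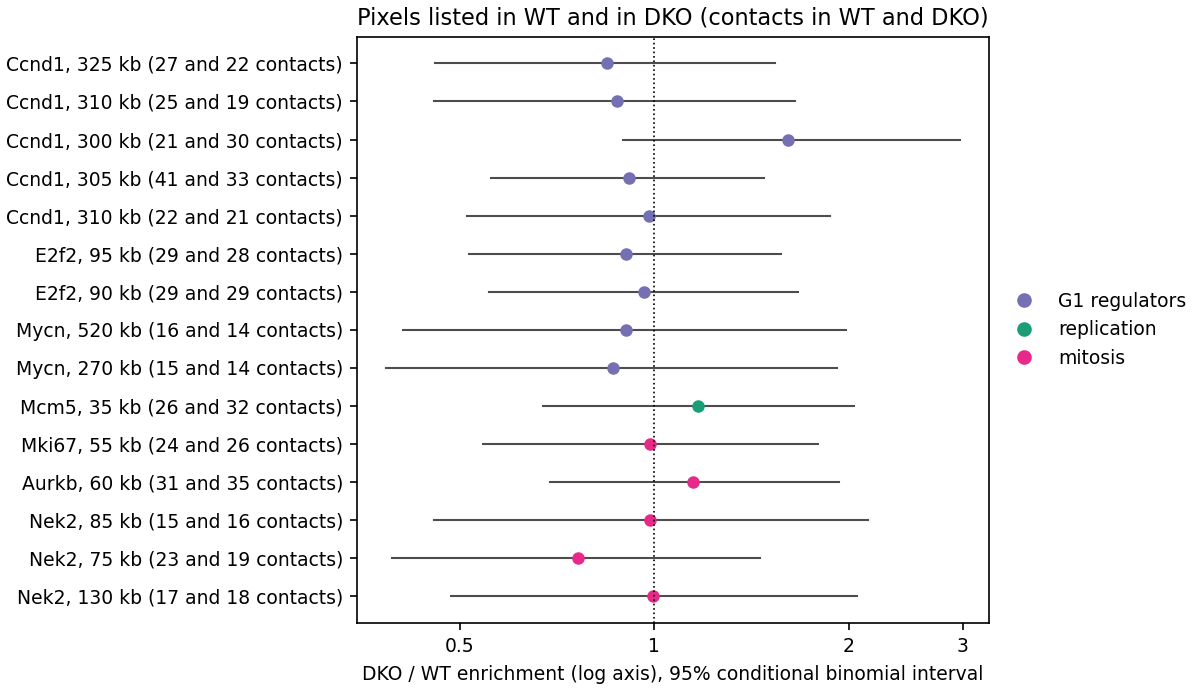
DKO/WT ratio of enrichment (log axis) at the 15 pixels listed in both libraries, with exact conditional 95% intervals and the contacts of WT and DKO beside each gene and span. Ratios ran from 0.762 to 1.61, and every interval crossed 1. Pixels called in a single list have no ratio and are not drawn.

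Of the 11 genes in both lists, 7 had an identical bin pair and 10 had pixels within 2 bins of each other, the exception being Top2a. Of the 6 genes in a single list, 4 had a single pixel, and 1 (Mcm6) had a pixel of the other list within 2 bins. The matching shares over all genes were not computed, so these counts do not set the members apart. The number of genes listed moved with the 10 kb limit. With gene ends within 20 kb 22 of the 36 had a pixel in either list (61.1%), Ccnd3, Ccne1, Ccne2, Cdkn2a and E2f1 being added. The share over all protein-coding genes rose as well, to 36%. The nearest anchor bin of Cdkn2a is the one that holds the start of Cdkn2b, so the same pixels count for both genes there. With an end inside the anchor bin 9 genes had a pixel (25%, against 14% of all genes). Just inside the limit were a Ccnd1 pixel at 9.93 kb in both lists and an Mki67 pixel at 9.78 kb in WT, and both genes had nearer pixels. Just outside were Ccnd3 in WT at 10.3 kb (20 contacts, 3.77 times expected) and Ccne2 in DKO at 10.4 kb (17 contacts, 5.95 times), beside Mcm6 in WT.

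Other genes of the cell cycle that are not among the 36 were placed by the same rule. Of these 101 genes 33 had a pixel in either list (32.7%, 23.7 to 42.7) and 12 in both (11.9%, 6.29 to 19.8), near the genome-wide shares. In WT 20 had a pixel and in DKO 25. By class 8 of 20 G1, 11 of 39 replication and 14 of 42 mitosis genes had a pixel. Cdkn1c, which encodes the inhibitor p57, had the highest counts of the further G1 genes with pixels in both lists, 41 in WT (11.8 times expected, 8.46 to 16.0) and 31 in DKO (10.6, 7.21 to 15.1) over 315 kb. The highest pixel of E2f8, an E2F repressor, had 18 contacts over 120 kb in WT and 22 over 125 kb in DKO, and that of Mycl 22 over 85 kb in each. Cdc6, which loads the helicase, had 33 over 50 kb in WT (4.53, 3.12 to 6.36) and 26 over 40 kb in DKO (2.44, 1.59 to 3.57). Rpa1, a single-strand binding protein gene, had 26 and 23 over 100 kb, and Rrm2, a ribonucleotide reductase subunit gene, 22 over 230 kb and 21 over 235 kb. The highest pixels of the mitosis genes differed between the lists. Bub1b, a checkpoint kinase gene, had 29 contacts over 120 kb in WT and 26 over 60 kb in DKO. Cdca8 had 20 over 155 kb and 19 over 115 kb, and Ncapd2, a condensin subunit gene, 14 over 100 kb and 15 over 70 kb.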

How the data were processed

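Hi-C libraries of WT and DKO hair matrix keratinocytes were analysed from the deposited list of enriched 5 kb pixels of each library, written by juicer_tools 1.22.01 per the file headers, on GRCm38 (mm10) per the submitters' processing notes. No source used here names the aligner or the sequencing depth. The authors deposited the observed contact count of each pixel, unnormalised, the expected contacts of 4 neighbourhoods as a signal on the same scale, and 4 q-values (FDR), all under 0.1.

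Genes were the protein-coding entries of RefSeq GRCm38.p6 on chromosomes 1 to 19, X and Y. Distance is from a gene end to the nearest base of a bin, and span from bin start to bin start. Enrichment is observed over donut expected. Pixels were listed because they exceeded their surroundings, so these ratios lean upward, most at low counts. Their intervals lie above 1 by that selection and do not test enrichment. Exact 95% intervals were Clopper-Pearson for shares, Poisson for counts over a fixed expected count, and conditional binomial for DKO/WT ratios, computed in Python with scipy 1.17.1 and tested on simulated data. Each member with a pixel is described. Up to 3 other cell cycle genes per class are named, those in both lists with the highest counts. Genes and lists were chosen with earlier results of these data known. Alternatives are given in the closing section.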

Additional observations from a re-analysis of the deposited data

How the results depend on the processing

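With 1 library per genotype no replicate could be left out and no paired analysis was possible because no result comes from a test. With gene ends inside the anchor bin, 6 genes had a pixel in WT, 7 in DKO and 4 in both, with 16, 13 and 6 pixels. At an FDR under 0.01 in all neighbourhoods, 9 genes remained in each list (Mcm5, Ccnd1, Ccnd2, Cdkn2b and E2f2, the 5 in both), with 19 pixels in WT, 18 in DKO and 6 in both. With at least 20 contacts, DKO kept 8 genes, 6 genes were in both, and the pixels numbered 23, 16 and 9. In that setting (9 genes in WT) and with gene ends within 20 kb (18 in WT and 17 in DKO) the order of the libraries turned around. Gene ends within 5 kb, or whole gene bodies, left the counts within 1.5 times. With a match within 1 bin, 32 WT and 28 DKO pixels had a counterpart, and within 2 bins 33 and 31, against 15 at identical bins. Matches within 1 or 2 bins were not counted over the whole lists. Median enrichment was 4.5 in WT and 4.76 in DKO. In WT it was 4.17 with the bottom-left and 3.79 with the horizontal expected count, and in DKO 4.17 with the horizontal and 4.19 with the vertical one. The share of the 36 genes with a pixel in either list stayed above that of all genes under every setting. It was 25% against 14% with ends inside the bin and 36.1% against 14.4% at an FDR under 0.01. The genes were named with earlier results of these lists known, so another cut-off on the same lists is no independent support. The 101 other cell cycle genes stood at 32.7% by the main rule, against 28.3% of all genes. Counts of 11 to 42 contacts per pixel limit every comparison.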
